A study of Homo sapiens with 4 samples.

Results

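The region between and around ITGB1 and NRP1 on the short arm of chromosome 10 was examined for FOXA2 binding in PC3 cells, an androgen-independent prostate cancer line. Its members were all peaks of the vehicle list and of the GSK2879552 list whose summit lay in hg19 chr10:33150000-33700000, a stretch of 550 kb. This gave 30 of the 21308 vehicle peaks (0.141%) and 18 of the 14846 GSK2879552 peaks (0.121%). Peaks were chosen by the position of their summit alone. The stretch itself was chosen by the fragments and −log10 p of its strongest sites in earlier results of these lists, so the height of its peaks is a description and not a finding. Nearest to the limits, the first vehicle summit inside lay 85200 bp from the lower limit with 22 fragments, and the last one inside lay 20811 bp from the upper limit, also with 22. The nearest vehicle summits outside lay 65266 bp below the lower limit, with 38 fragments, and 67442 bp above the upper limit, with 48.

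FOXA2 chromatin immunoprecipitation followed by sequencing (ChIP-seq) compared PC3 cells that received vehicle with PC3 cells that received GSK2879552, which inhibits LSD1 (KDM1A), an enzyme that removes methyl groups from histones. Both groups were PC3 cells in RPMI-1640 with 5% charcoal-stripped serum; maintenance medium held 10% fetal bovine serum; the treated group received 50 µM GSK2879552 for 4 hours, and no separate duration is given for vehicle. Each group had 2 samples, sequencing lanes called technical replicates in the labels, and both lanes of a group went into 1 peak list. There was therefore no measure of spread between cultures, the groups were not tested against each other, and every interval below covers counting error only. PC3 is a single established line, and the labels do not state what its untreated FOXA2 or LSD1 level is.

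FOXA2 is a forkhead transcription factor that can bind its sites in compact chromatin and is best known from endoderm, liver and neuroendocrine prostate tumours. NRP1 encodes neuropilin, a cell-surface co-receptor that binds secreted semaphorins together with plexins, and vascular endothelial growth factor together with its receptor tyrosine kinases. ITGB1 encodes an integrin beta subunit that pairs with many alpha subunits to anchor cells to collagen, laminin and fibronectin. Both genes are transcribed from the minus strand, so their start lies at the higher coordinate. In hg19 the limits used for them, rounded to 10 kb, were 33.19 to 33.25 Mb for ITGB1 and 33.47 to 33.62 Mb for NRP1. In the RefSeq annotation of GRCh38.p14, the long noncoding RNA genes ITGB1-DT and IATPR lie between ITGB1 and NRP1. Exons and introns were not resolved, as no annotation of that build was used here.

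The sequence before the start of ITGB1 is shown because no called peak covers that start. No summit of either list lay within 10 kb of the 33.25 Mb limit. RefSeq (GRCh38.p14, minus strand) gives the 250 bases before the outermost ITGB1 start as follows, in lower case because no forkhead letters were found in them.
ITGB1: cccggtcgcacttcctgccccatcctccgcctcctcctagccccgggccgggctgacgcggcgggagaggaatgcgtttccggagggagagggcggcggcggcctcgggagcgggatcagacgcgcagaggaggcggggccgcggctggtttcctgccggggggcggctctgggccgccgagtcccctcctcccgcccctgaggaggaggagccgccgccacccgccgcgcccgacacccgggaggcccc
Over the 300 bases of this entry, which run 50 bases past the start, 78.3% were G or C, against a median of 58.7% over 35116 RefSeq promoters of that length. The letters TGTTTAC or TGTTTGC, searched on both strands, occurred in 7.17% of those promoters and not in this one. That says only that these letters are not in this window. Of 4 genes of the region looked up by symbol (ITGB1, ITGB1-DT, IATPR and NRP1), 2 had an entry, ITGB1 and IATPR.

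Peaks are described below by the number of sequenced fragments that covered the summit. This number was worked out from the deposited fold enrichment and −log10 p of each peak, as was the local background, the number of fragments expected at that position. The smallest number at any called summit was 7 in both lists. The floor of this background was 61.7 reads per 10 kb for vehicle and 64.4 for GSK2879552, provided that the peak caller drew it from the immunoprecipitated library; whether it did is not stated. Fragment ratios were scaled by the floors of the backgrounds, 1.079 and 1.082 fragments, which differ by a factor of 1.003.

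FOXA2 peaks were crowded over NRP1 and sparse over ITGB1. The 150 kb of NRP1 held 16 vehicle peaks and 11 GSK2879552 peaks, or 10.7 and 7.33 per 100 kb. The 80 kb beyond its start held 6 and 3 peaks, and the 220 kb between both genes held 7 and 4. ITGB1, over 60 kb, held 1 vehicle peak and no GSK2879552 peak, and the 40 kb below it held none in either list. Summed over summits, NRP1 carried 1350 of the 2003 vehicle fragments of the region and 866 of the 1271 GSK2879552 fragments. Neighbouring vehicle summits lay a median of 10.6 kb apart, against 55.4 kb elsewhere in the genome. In GSK2879552 the median gaps were 19.7 kb in the region and 81.6 kb elsewhere.

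Among adjoining windows of 550 kb over the placed chromosomes, 4426 held a vehicle peak, with a median of 4. The window of ITGB1 and NRP1, with 30, was exceeded by 1 window, chrY:13350000-13900000, with 32 vehicle and 29 GSK2879552 peaks. By summed vehicle fragments 4 windows were higher. Whether the peaks of those other windows are bound sites was not examined. As the stretch was chosen for its strong sites, its ranks are a description. With GSK2879552, 6 of 4097 windows held more than its 18 peaks.

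**Figure D1:**
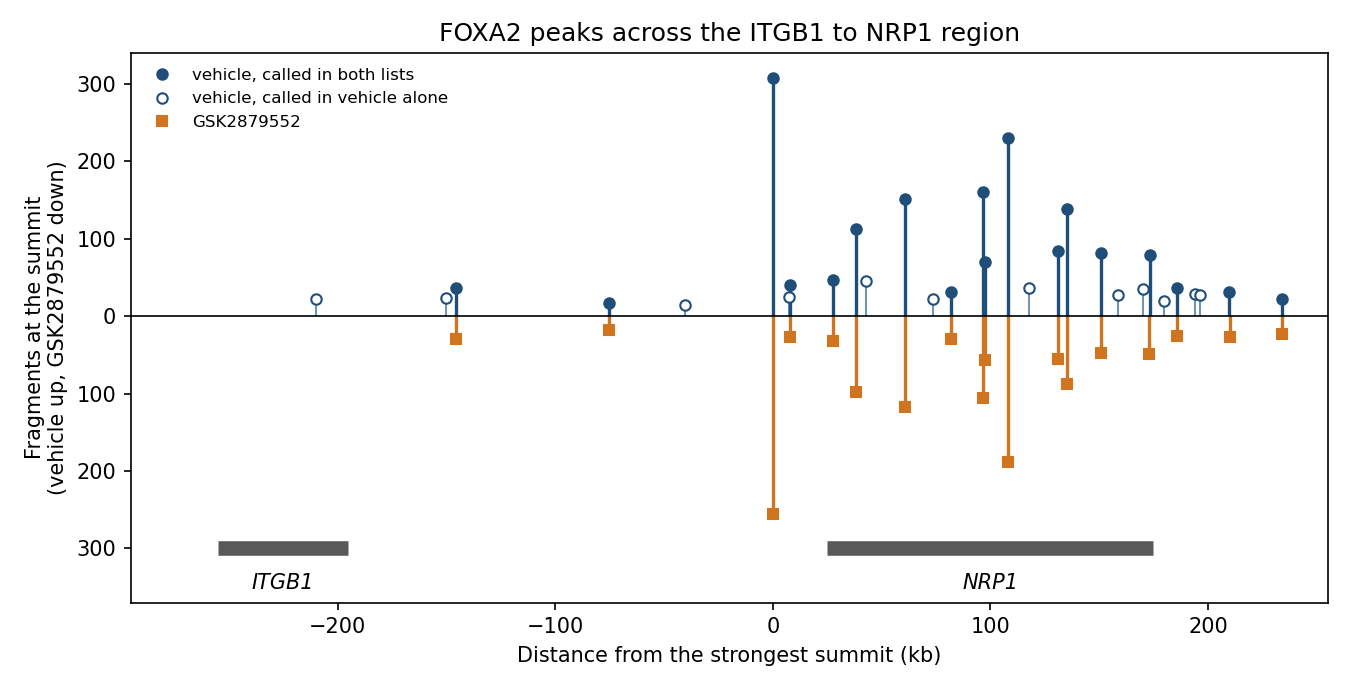
FOXA2 peaks of the region by distance of the summit from the strongest summit (kb, horizontal axis) and fragments at the summit (vertical axis, vehicle upward in blue, GSK2879552 downward in orange). Open circles are the 12 peaks called in vehicle alone and grey bars the rounded limits of both genes; the strongest site, at 308 and 256 fragments, lies between the genes, and the crowd of sites over NRP1 contrasts with 1 open circle over ITGB1.

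The strongest site of the region stood between the genes, close to the 3′ end of NRP1. At chr10:33444863-33445489, with its vehicle summit 24.9 kb outside the rounded NRP1 limit, 308 vehicle fragments and 256 GSK2879552 fragments covered the summit. It held rank 1 by −log10 p in both lists. The depth-scaled ratio was 0.829 (95% interval 0.699 to 0.982). The summits of the 2 lists lay 3 bp apart, and the peak was 627 bp wide in vehicle and 562 bp in GSK2879552, the widest of the region in both lists.

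Within NRP1 the strongest site was chr10:33553128-33553559, with 230 fragments in vehicle and 189 in GSK2879552. Its ratio was 0.819 (0.672 to 0.998), nearly that of the site at the 3′ side. At chr10:33505607-33506032 there were 152 and 117 fragments, a ratio of 0.768 (0.598 to 0.983). The site nearest to the 3′ end among the strong ones, chr10:33483089-33483476, had 113 and 98 fragments, and its interval included 1 (ratio 0.865, 0.653 to 1.14). These sites kept most of their fragments with GSK2879552, as did every pair of the region, where the lowest ratio was 0.579.

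Other strong NRP1 sites had lower ratios, with intervals that overlap those above, so they are not a separate class. Vehicle gave 160 fragments and GSK2879552 gave 106 at chr10:33541667-33542188, a ratio of 0.661 (0.512 to 0.850). At chr10:33580108-33580452 the numbers were 138 and 87, a ratio of 0.629 (0.475 to 0.828). The lowest ratio of the region belonged to chr10:33595654-33596018, where 81 fragments faced 47, a ratio of 0.579 (0.395 to 0.839). At chr10:33576062-33576379, its vehicle summit 4057 bp from that of the 138-fragment site, 84 and 55 fragments gave a ratio of 0.653 (0.456 to 0.928).

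The peak nearest to the rounded 33.62 Mb limit of the NRP1 start lay at chr10:33617910-33618420, its vehicle summit 1.80 kb inside that limit. It had 79 fragments in vehicle and 49 in GSK2879552, a ratio of 0.619 (0.424 to 0.895). Because the limit is rounded to 10 kb, whether this peak covers the start, or is the peak nearest to it, could not be resolved. The vehicle summit at 33618204 and the GSK2879552 summit lay 83 bp apart. Upstream of it, the vehicle list alone had a peak at chr10:33624925-33625178 with 19 fragments, its summit 5.08 kb beyond the rounded limit.

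The remaining NRP1 pairs were weaker. At chr10:33542409-33542656, whose summit lay 689 bp from the 160-fragment site, 70 fragments in vehicle stood beside 57 in GSK2879552. At chr10:33472594-33472869 there were 47 and 32, and at chr10:33526863-33527114 there were 31 and 29. The intervals of all 3 ratios (0.812, 0.679 and 0.933) included 1. All 11 pairs within NRP1 had fewer fragments with GSK2879552, with a median log2 ratio of -0.56 and a range of -0.79 to -0.10. Over all pairs of the genome 83.7% were lower after scaling, which counts pairs of equal numbers as lower. Over the 699 pairs elsewhere with 61 or more vehicle fragments and a background under 25 the share was 94.8%. Before scaling, 10302 of all 13200 pairs were lower and 748 were equal. Of the 699 pairs, 659 were lower and 4 equal, and no pair of the region was equal. Over the 4 pairs between the genes the median was -0.31, and over the 3 pairs beyond the NRP1 start it was -0.20. With so few pairs outside the gene, and intervals that overlap from site to site, these medians are given as a description; over all pairs the median was -0.33.

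Apart from the strongest site, the paired sites away from NRP1 carried few fragments. Between the genes, chr10:33299063-33299460 had 37 vehicle and 29 GSK2879552 fragments, and chr10:33452959-33453338 had 40 and 27. At chr10:33369509-33369695 the numbers were 17 and 18, the highest ratio of the region at 1.06 (0.513 to 2.18). Beyond the NRP1 start, 37 and 25 fragments were found at chr10:33630670-33630967 and 31 and 27 at chr10:33654813-33655131. The outermost pair, chr10:33679077-33679269, had 22 and 23. The intervals of all 6 ratios included 1.

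Taking the 18 pairs of the region together, the median number of fragments was 74.5 in vehicle and 48 in GSK2879552. The median log2 ratio was -0.37 (interquartile range -0.59 to -0.22), a ratio of 0.775. Over the 13182 pairs elsewhere it was -0.33 (-0.58 to -0.08), a ratio of 0.798, so the region lay within the spread of the rest of the genome. Fragments were lower with GSK2879552 at 16 of 18 pairs, where 83.7% of all pairs were lower with equal numbers counted as lower. Without the equal ones, 10302 of all 13200 pairs were lower. Fragments were at least 1.5-fold lower at 5 pairs, all within NRP1, where 24.9% of all pairs were. None of the 18 was at least 1.5-fold higher, against 0.826% of all pairs. Read against these shares of all pairs, the counts for the region lay near the background. They were further from pairs of like local background, a comparison that was not planned. At a vehicle background of 8 to under 25 fragments, all 12 pairs of the region were lower and 4 were at least 1.5-fold lower, with a median log2 ratio of -0.47 (-0.60 to -0.28). Of 161 such pairs elsewhere 76.4% were lower and 2.48% at least 1.5-fold lower, with a median of -0.11 (-0.26 to -0.0040). Before scaling, 117 of the 161 were lower and 6 were equal. Those pairs elsewhere had a median of 66 vehicle fragments, against 98.5 in the region. Summits moved by over 50 bp at 34 of the 161, against 2 of the 12. What kind of sites the 161 are was not resolved, so this difference is not shown to be a trait of the region. With 61 or more vehicle fragments and a background under 25, the medians were -0.49 in the region and -0.41 elsewhere. The counting interval of the ratio lay below 1 at 8 pairs, included 1 at 10 and lay above 1 at none, where it lay below 1 at 8.27% of all pairs. All 8 were among the 10 pairs with 61 or more vehicle fragments. Elsewhere it lay below 1 at 34.5% of 699 pairs with as many fragments and a background under 25. More fragments narrow the interval, and the medians of these sets were 125.5 and 73 vehicle fragments.

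**Figure D2:**
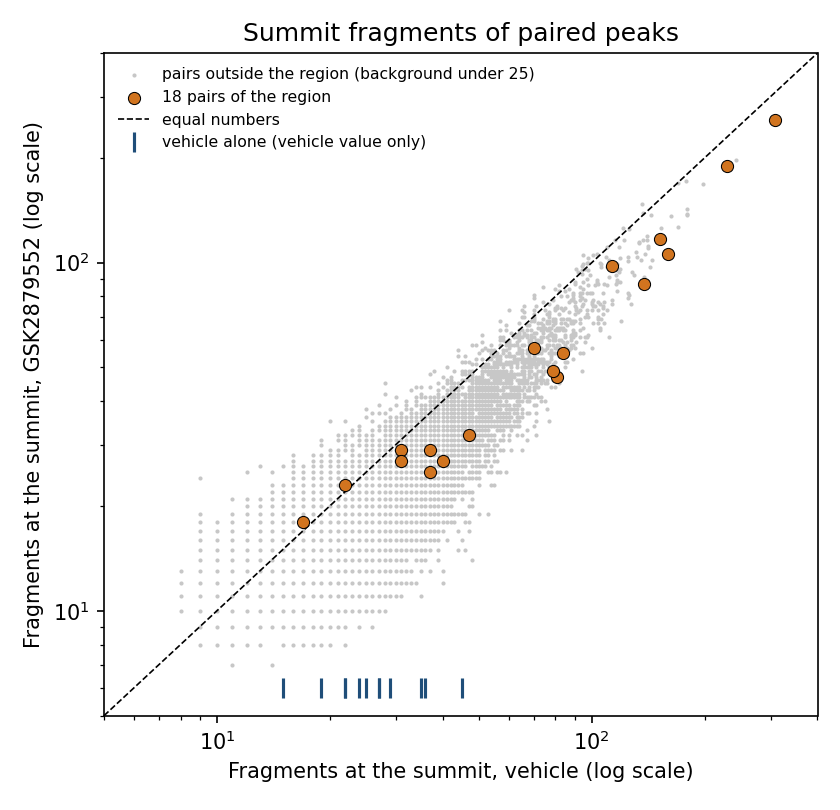
Fragments at the summit in vehicle (horizontal) and GSK2879552 (vertical), both on log scales, for the 18 pairs of the region (orange) and for pairs elsewhere with a vehicle background under 25 fragments (grey). Blue ticks mark vehicle fragments of the 12 peaks called in vehicle alone; 16 of 18 orange points lie below the dashed line of equal numbers, inside or at the upper end of the grey cloud.

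Set beside sites of like strength, most NRP1 pairs lay below the middle and some above it. Pairs elsewhere were compared within a factor of 1.25 of the vehicle number, leaving out local backgrounds of 25 fragments or more. For the site with 81 and 47 fragments, the log2 ratio of -0.79 stood beside a median of -0.40 (-0.56 to -0.21) over 475 pairs, of which 5.89% were lower. For the site with 138 and 87 fragments, -0.67 stood beside -0.33 (-0.50 to -0.24) over 52 pairs, 7.69% of them lower. For the site with 160 and 106 fragments, -0.60 stood beside -0.34 (-0.41 to -0.24) over 29 pairs, 6.90% of them lower. At the sites with 79, 84, 47 and 152 vehicle fragments, 11.8%, 19.1%, 36.9% and 41.7% of such pairs were lower. In the other direction, the site with 113 and 98 fragments had -0.21 beside -0.35 (-0.54 to -0.19) over 137 pairs, of which 73.7% were lower. At the sites with 70 and 31 vehicle fragments the shares were 66.4% and 85.7%. The 230-fragment site had only 2 such pairs. No pair elsewhere came within that factor of the 308-fragment site under that limit. Over the 10 pairs of the region with 61 or more vehicle fragments the median was -0.49, and over 699 such pairs elsewhere it was -0.41 (-0.58 to -0.22).

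Of the 30 vehicle peaks of the region, 18 overlapped a GSK2879552 peak (60%, 95% interval 40.6 to 77.3) and 12 did not. Over all vehicle peaks 38.0% were not overlapped, so the region's 12 of 30 is near the background. By vehicle fragments the shares were further apart. At 31 to 60 fragments 6 of 9 peaks were shared in the region (66.7%, 29.9 to 92.5) and 97.8% (97.3 to 98.3) elsewhere, and at 1 to 30 fragments 2 of 11 (18.2%, 2.28 to 51.8) and 52.7% (51.9 to 53.4). At 61 or more, 10 of 10 were shared in the region and 97.7% elsewhere. The local background, which enters a peak's fold, was also higher in the region, as given below; its part in these shares was not tested. All 18 GSK2879552 peaks overlapped a vehicle peak (interval from 81.5%), where 10.8% of all GSK2879552 peaks did not. No site of the region was thus called with GSK2879552 alone. The ratio of peak numbers, 0.60, had an interval of 0.315 to 1.11 when both counts were taken as independent. That interval includes the 0.697 of the whole lists. Among 23 windows with 20 or more vehicle peaks the median ratio was 0.75, with 1 window lower than 0.60 and 21 higher. What kind of sites those windows hold was not examined, so this is a description.

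The 12 sites called in vehicle alone were scattered through the region rather than gathered at one place. Within NRP1 there were 5. The one with the most fragments, chr10:33487618-33487877, had 45, over a local background of 11.4, and its vehicle summit lay 4400 bp from that of the 113-fragment site. The next were chr10:33562751-33562977 with 36 fragments and chr10:33615005-33615239 with 35, the latter 2994 bp from the nearest GSK2879552 summit. The other NRP1 sites were chr10:33603772-33604026 with 27 and chr10:33518545-33518802 with 22.

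Beyond the NRP1 start, vehicle-alone sites were chr10:33638977-33639232 with 29 fragments and chr10:33641187-33641409 with 27, 2183 bp apart, besides the 19-fragment site already given. Neither of that close pair was called with GSK2879552. Between the genes, chr10:33452398-33452602 had 25 fragments, chr10:33294712-33294975 had 24 and chr10:33404713-33404888 had 15. The only peak over ITGB1 was also called in vehicle alone. It lay at chr10:33235117-33235291, with 22 fragments over a local background of 3.26, at the shortest width of the vehicle list, 175 bp. Its summit lay 14.8 kb inside the rounded ITGB1 start, and the nearest GSK2879552 summit was 64.2 kb away.

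Beside vehicle-alone peaks elsewhere, those of the region had more fragments but a lower fold. Their fragments ran from 15 to 45 with a median of 26, and their deposited folds from 2.74 to 5.41 with a median of 4.03. Vehicle-alone peaks elsewhere had a median of 14 fragments and a fold of 5.77. The local background was higher in the region, with a vehicle median of 7.92 fragments against 1.68 elsewhere. Each vehicle-alone site of the region had a −log10 p under 14, and of the 15 vehicle peaks under that value 3 were shared (20%, 4.33 to 48.1), against 37.0% elsewhere (36.1 to 37.9). The value of 14 was chosen after these sites were seen, and it falls just above the highest of them. That choice lowers the region's share under 14, so no conclusion is drawn from it. At 14 or more, 15 of 15 were shared in the region, an outcome fixed by that choice of limit. The 88.7% shared elsewhere is therefore no comparison for it.

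A site missing from a list was not shown to be unbound. At the vehicle background scaled to the GSK2879552 floor, the lowest −log10 p of the GSK2879552 list would have been reached with 12 to 27 fragments, depending on the site. At the 45-fragment site this number was 27, at the 36-fragment site 22 and at the ITGB1 site 13. Had these sites kept the median ratio of pairs elsewhere, they would have had 36, 28.8 and 17.6 fragments. For 10 of the 12 sites that product reached the number needed, and for 2, the sites with 25 and 22 fragments at chr10:33452398-33452602 and chr10:33518545-33518802, it did not. The same count over vehicle-alone peaks elsewhere was not made. The median ratio came from pairs called in both lists, whereas these sites were picked as called in vehicle alone. The count is therefore a description only. A call also requires a minimum width, which was not part of this calculation.

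**Figure D3:**
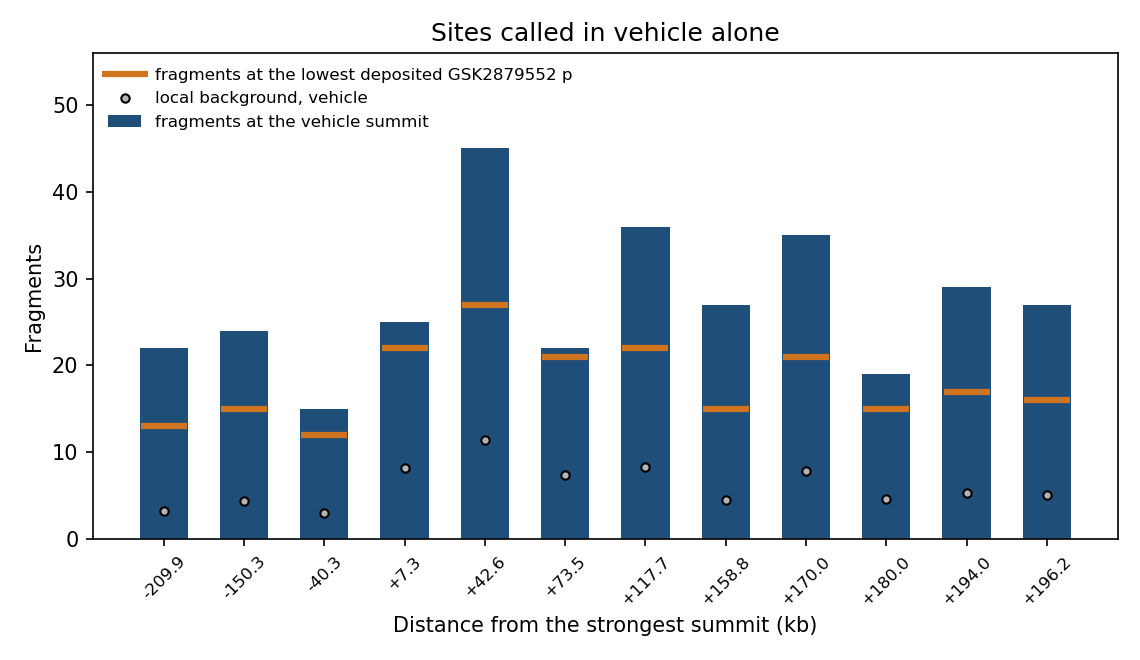
The 12 sites called in vehicle alone, ordered along the region by distance from the strongest summit (kb): fragments at the vehicle summit (bars), local background in vehicle (grey points) and the fragments that give the lowest deposited GSK2879552 −log10 p at that background (orange lines). The bars run from 15 to 45 and the orange lines from 12 to 27, below the bar at each site.

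Peaks of the region were somewhat narrower with GSK2879552 and kept their summits. Over the 18 pairs the median width was 355 bp in vehicle and 315.5 bp in GSK2879552, with a median change of -23.5 bp. Elsewhere the median change was -33 bp. The GSK2879552 peak was narrower at 13 pairs and wider at 5, where 75.0% of all pairs were narrower. The change was -162 bp at the 40-fragment site between the genes and 158 bp at the outermost pair. Summits moved by a median of 20 bp, against 23 bp elsewhere, and by over 50 bp at 4 pairs, where 20.4% of all pairs moved as far. Neither count stood apart from all pairs. The farthest, 151 bp, was at chr10:33654813-33655131.

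Pairs of neighbouring peaks under 1 kb apart occurred at 2 places. At the 3′ side of NRP1 the vehicle summits at 33452465 and 33453102 lay 637 bp apart, with 25 and 40 fragments, and the weaker was not called with GSK2879552. Inside NRP1 the summits at 33541832 and 33542521 were called in both lists, with 160 and 70 fragments in vehicle and 106 and 57 in GSK2879552.

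The local backgrounds differed less between the lists than fragments at the summits. If the background was drawn from the immunoprecipitated library, which is not stated, its value above the floor is a whole number of reads in the 10 kb around a summit, and no peak of the region was at the floor. Around the strongest site 930 reads were found in vehicle and 899 in GSK2879552. Around the 230-fragment site there were 700 and 764, and around the 160-fragment site 813 and 823. The 79-fragment site near the rounded NRP1 start had 476 and 433. Vehicle values at paired sites ran from 123 to 930 reads, all above the floor of 61.7. Scaled for depth, the ratio of these reads had a median of 0.991 (range 0.871 to 1.12) over the 18 pairs, and 0.957 over pairs elsewhere. Its interval included 1 at 17 pairs and lay below 1 at the 79-fragment site (0.871, 0.763 to 0.994). At 17 of 18 pairs the ratio at the summit was below the ratio over 10 kb. Pairs elsewhere had the same order by their medians, 0.798 at the summit and 0.957 over 10 kb. The share of pairs elsewhere with that order was not worked out, so the count is not a trait of the region. The windows of neighbouring sites overlap, and on that reading of the background each also holds the reads of its own peak.

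**Figure D4:**
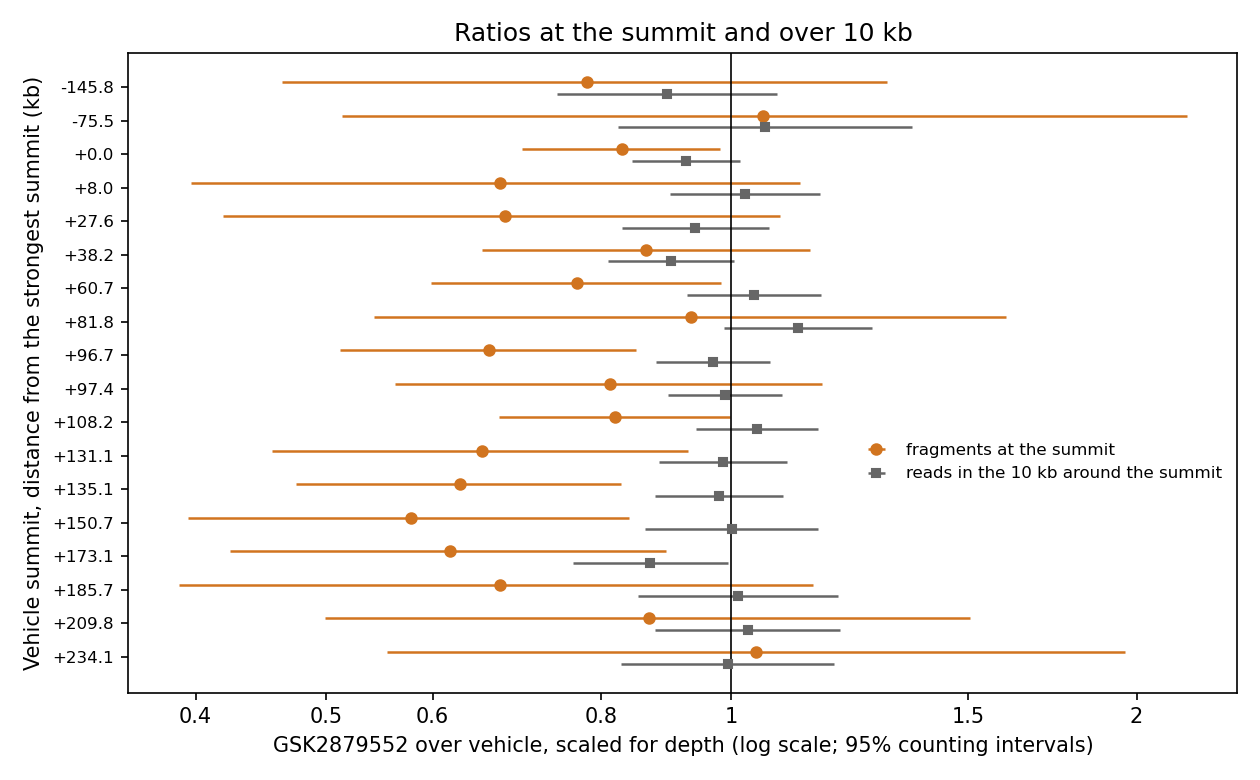
GSK2879552 over vehicle, scaled for depth (horizontal, log scale), for each of the 18 pairs ordered along the region: fragments at the summit (orange circles) and reads in the surrounding 10 kb (grey squares), with 95% counting intervals. Grey squares lie between 0.871 and 1.12, and orange circles between 0.579 and 1.06.

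Along the region the ratio at the summit followed no single order. Across the 18 pairs, Spearman's rho of the log2 ratio was -0.43 with vehicle fragments, -0.23 with the local background and -0.14 with the distance from the strongest summit. The pairs share both libraries, and vehicle fragments enter the ratio itself, so these are descriptions only.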

How the data were processed

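FOXA2 ChIP-seq peak lists of PC3 cells were used, 1 per group, each from 2 lanes. The submitters' processing notes name MACS2 2.1.2, BWA 0.7.2 and SAMtools 0.1.18 as the authors' tools, with hg19. For options, duplicate handling and any control library, nothing is stated in those notes. Sample descriptions name ATAC-seq; titles and series name FOXA2 ChIP-seq, which was followed.

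The deposited fold is a ratio: fragments plus 1 over local background plus 1. The deposited −log10 p and −log10 q are those of the authors' peak caller, and the deposited score, 10 times the −log10 q, was not used. Peak folds and −log10 p values printed are the authors'. Fragments were the whole number under 1500 whose Poisson upper tail gave the deposited −log10 p. A match within 0.001 was found for 100% of peaks, and the recovery was tested on simulated data. Above the floor, 100% of backgrounds came out as whole multiples, to within 0.05 of a step, of the shortest peak width (175 or 168 bp) over 10 kb. Peaks overlapping by at least 1 bp were shared, and mutual best partners formed pairs. Intervals are exact binomial at 95%. Precision is set by fragments per summit.

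The members, lists and comparisons were chosen with earlier results of these data known. Peaks given in full were the 8 of highest vehicle −log10 p, those called in 1 list alone, the lowest and highest ratios, and those nearest to the rounded limit of each gene start. Planned lists of semaphorin, VEGF and integrin genes, and peak sequences, were not analysed here, as no genome or annotation of the hg19 build was used. Alternatives were stricter thresholds, other overlap rules, other limits and other scalings. Python 3.11.15, scipy 1.17.1 and pandas 2.3.3 were used.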

Additional observations from a re-analysis of the deposited data

How the results depend on the processing

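Over stricter thresholds and a region narrowed by 50 kb at each end, the ratio of peak numbers ran from 0.571 (narrowed) to 0.714 (fold of at least 5), inside its interval. For vehicle peaks, the share overlapped was 56.7% (summits within 100 bp) and up to 68.8% (−log10 q of at least 10). That of GSK2879552 peaks was 94.4% with summits within 100 bp. The median log2 ratio of the 18 pairs ran from -0.36 without scaling to -0.47 in the narrowed region, inside its interquartile range. By segment, moving the limits by 5 kb gave -0.47 and -0.49 for NRP1, -0.36 between the genes and -0.39 beyond NRP1. For single pairs, all 36 values without scaling or above the local background lay inside the counting interval. Those without scaling differ from the main values only by the factor of 1.003, so they were bound to lie inside. Leaving out pairs elsewhere with a background of 25 or more was chosen after seeing the data. No paired analysis was possible because the lanes of a group were pooled into a single list, and leaving out a lane was not run for the same reason. Fragments per summit limit the precision.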
